A study of Mus musculus with 4 samples.

Results

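The genes described here encode proteins of the large subunit of the mitochondrial ribosome in the mouse. They were chosen by annotation, as the protein-coding genes whose symbol is Mrpl followed by a number only, and 48 of the 15746 genes of the deposited table met this rule. Hearts of wild-type mice had been split into a mitochondrial and a rest fraction, and the RNA of both was sequenced, with 2 libraries for each fraction. The study describes the mice as adult. The rest fraction is the pellet of cell debris from a slow spin of the homogenate, and the mitochondrial fraction is the pellet of a faster spin of the supernatant, which was then exposed to RNase A and to digitonin, which permeabilizes cholesterol-rich membranes. The methods give this treatment, and an adjusted time of RNA fragmentation, for mitochondrial samples only, so that both cannot be told apart from the fraction itself. Neither sex nor a separate origin of the libraries from different animals is given, and p-values therefore measure the spread between these samples, which may be technical.

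Mitochondrial ribosomes translate the few mRNAs of the mitochondrial genome, all of which encode subunits of the respiratory chain and the ATP synthase. Their rRNAs come from the mitochondrial genome, but every ribosomal protein is encoded in the nucleus, translated by cytosolic ribosomes and imported, and part of this translation takes place at the mitochondrial surface. Many of the large subunit proteins are homologues of bacterial ribosomal proteins, and the others occur only in mitochondrial ribosomes. The heart, with its high demand for oxidative phosphorylation, depends on them, and inherited defects of several of these proteins cause cardiomyopathy in humans.

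The deposited values are normalized counts, that is, the reads of a gene over the size factor of its library, in whole numbers. A single read was worth 3.87 (replicate 1) and 2.55 (replicate 2) normalized counts in mitochondria, and 0.264 and 0.365 in the rest fraction, on about 47400000, 32100000, 26300000 and 23500000 reads on genes. Genes of the mitochondrial chromosome took 97.6% and 93.5% of the normalized counts in mitochondria and 63.2% and 67.5% in the rest fraction. The large subunit mRNAs therefore rested on fewer reads in mitochondria, with a median of 19 and 28 reads per gene and a minimum of 3 and 8, than in the rest fraction, with a median of 134 and 95 and a minimum of 38 and 14. All 48 genes had at least 3 reads in each library and passed the filter, which asked for 10 or more normalized counts in 2 or more libraries. Intervals and limits from reads cover counting error only, since the reads carry no molecular identifiers.

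The large subunit mRNAs were almost all higher in mitochondria, relative to the other genes of the same libraries. Their median, in normalized counts, reached 75.5 and 72.5 in mitochondria against 35.5 and 35 in the rest libraries, whereas the median of all tested protein-coding genes was 46 in mitochondria and 49 in the rest fraction, for both replicates. The log2 fold change, on the scale of log2(normalized count + 1), was positive for 47 of the 48 mRNAs and had a median of 0.99, against -0.14 over all 12150 genes tested, of which 43.8% were positive. For 41 of the 48, both mitochondrial values were above both rest values, which held for 27.7% of all genes tested. The reverse order was found for 0 of the 48 and for 33.4% of all genes. The sign of these differences depends on the scaling, since scaling to the library total, which is mostly mitochondrial RNA, gave a median of -2.93 for the large subunit mRNAs and -3.93 for all genes, and scaling to the total without the mitochondrial chromosome gave 0.14 and -0.98. A share of a library needs no size factor, but its order depends on the total chosen, as in the scalings just given. The total of nuclear protein-coding genes was taken up after seeing the data. Of it, the 48 mRNAs together made up 0.223% (95% Wilson interval 0.211 to 0.235) and 0.234% (0.223 to 0.246) in mitochondria. In the rest fraction they made up 0.107% (0.105 to 0.109) and 0.101% (0.0987 to 0.104).

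**Figure D1:**
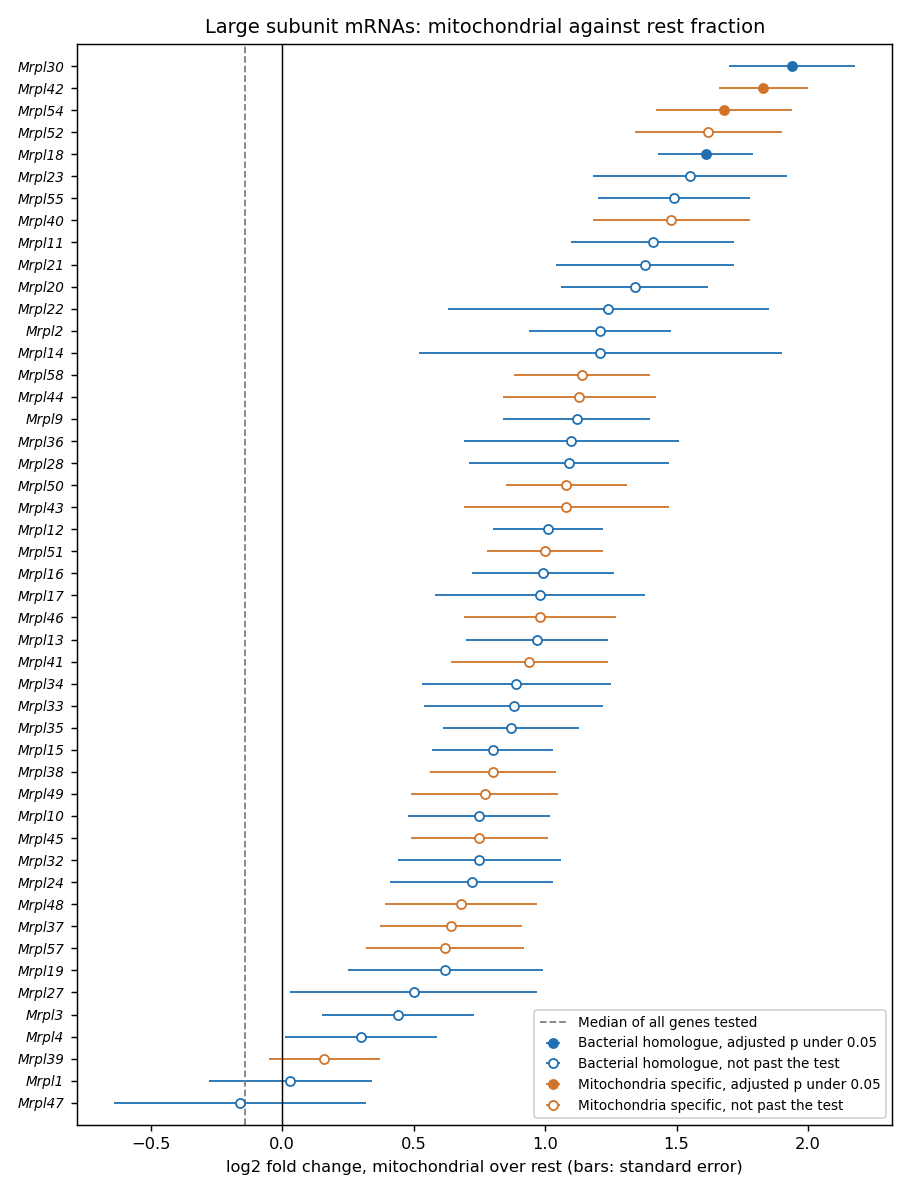
The log2 fold change of each of the 48 large subunit mRNAs is plotted on the horizontal axis with its standard error from limma (2 libraries in each fraction), ordered by size, with homologues of bacterial proteins in blue and proteins of mitochondrial ribosomes only in orange. Filled points mark the 4 mRNAs with an adjusted p-value under 0.05, and under the deposited scaling, on which all signs depend, the values run from -0.16 for Mrpl47 to 1.94 for Mrpl30.

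In limma's moderated test over all 12150 genes, with Benjamini-Hochberg adjustment, 4 of the 48 mRNAs rose in mitochondria at an adjusted p-value under 0.05, and 2.16% of all genes did. For decreases the count was 0, against 1.39% of all genes. At an unadjusted p-value under 0.05, 31 of the 48 were higher and 0 were lower, against 14.1% and 16.2% of all genes. The 4 calls were lost with a pseudocount of 0.1, which left 0 calls among all genes tested. They were also lost in each fit without 1 of the 4 libraries, where 1 fraction rests on a lone library. Calls among the 48 numbered 1 when libraries were scaled to their total without the mitochondrial chromosome. There were 9 when they were scaled to the total of nuclear protein-coding genes, and 13 of 26 when genes were restricted to a mean above 50. Over all genes, the numbers called higher in these settings were 129, 615 and 790, against 262 in the main fit.

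The mRNAs that passed the test were Mrpl30, Mrpl42, Mrpl54 and Mrpl18. Mrpl30 (ENSMUSG00000026087), the homologue of bacterial protein L30, lies on the plus strand of chromosome 1 of GRCm38 from 37890477 to 37898535. It had 376 and 265 normalized counts in mitochondria and 77 and 86 in the rest fraction. Both mitochondrial values thus stood far above both rest values, although the mitochondrial replicates differed more from each other than the rest replicates did. Its log2 fold change of 1.94 ± 0.24 (standard error, SE, adjusted p = 0.0427 from limma) was the largest of the 48.

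Mrpl42 (ENSMUSG00000062981), a protein found only in mitochondrial ribosomes, lies on the minus strand of chromosome 10 from 95480805 to 95501940. Its mitochondrial values were 600 and 541 normalized counts and its rest values 157 and 161, the highest values of any large subunit mRNA in each of the 4 libraries. The fractions were well separated and the replicates close together, with a log2 fold change of 1.83 ± 0.17 (SE, adjusted p = 0.0427 from limma). From the 367 reads of both mitochondrial and the 1035 reads of both rest libraries the ratio was 3.56 (exact 95% interval 3.15 to 4.01), an interval for counting error alone.

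Mrpl18 (ENSMUSG00000057388) lies on the minus strand of chromosome 17 from 12911349 to 12916345. Its bacterial homologue binds 5S rRNA in the central protuberance, where mammalian mitochondrial ribosomes hold a mitochondrial tRNA instead. It had 290 and 298 normalized counts in mitochondria and 98 and 93 in the rest fraction. The replicates of each fraction were nearly equal, and the log2 fold change was 1.61 ± 0.18 (SE, adjusted p = 0.0427 from limma).

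Mrpl54 (ENSMUSG00000034932), a mitochondria-specific protein near the base of the stalk, lies on the minus strand of chromosome 10 from 81264713 to 81266934. It had 108 and 89 normalized counts in mitochondria and 33 and 27 in the rest fraction, again without overlap. With a log2 fold change of 1.68 ± 0.26 (SE, adjusted p = 0.0489 from limma), it passed the test closely. Mrpl52 (ENSMUSG00000010406), also mitochondria-specific, had 128 and 89 normalized counts in mitochondria and 35 and 33 in the rest fraction. The mean difference of 1.62 in log2 was as large as that of Mrpl18, but with a standard error of 0.28 the adjusted p-value of Mrpl52 from limma was 0.0544. It fell under the threshold with TMM scaling (0.0485), the replicate block (0.0443), a pseudocount of 10 (0.0392) or a mean above 50 (0.0164). The same was so with scaling to nuclear protein-coding genes. Without 1 library each, the log2 fold change of Mrpl52 ranged from 1.36 to 1.88.

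**Figure D2:**
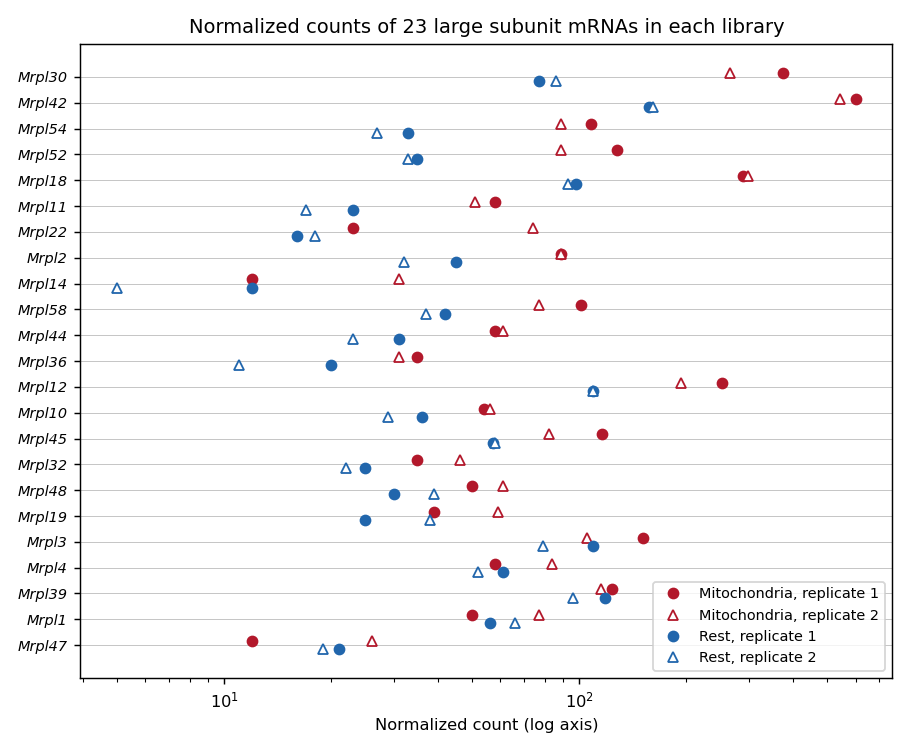
Normalized counts (log axis) of 23 large subunit mRNAs are plotted for each library, with mitochondria in red and the rest fraction in blue, circles for replicate 1 and triangles for replicate 2. The fractions stand well apart for Mrpl42 and Mrpl18 and mix for Mrpl39, Mrpl1 and Mrpl47, while Mrpl14 and Mrpl22 show a wide gap between the mitochondrial replicates.

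The stalk of the large subunit recruits translation factors to the ribosome. Mrpl12, which forms its flexible part, had 252 and 194 normalized counts in mitochondria and 109 in both rest libraries. This gave a log2 fold change of 1.01 ± 0.21 (SE, adjusted p = 0.0650 from limma). Mrpl10, which anchors Mrpl12 to the ribosome, had 54 and 56 normalized counts in mitochondria and 36 and 29 in the rest fraction (log2 fold change 0.75, adjusted p = 0.148). Mrpl11, at the base of the stalk, had 58 and 51 normalized counts in mitochondria and 23 and 17 in the rest fraction (log2 fold change 1.41, adjusted p = 0.0669). None of these 3 passed the test, which 2.16% of all genes passed as higher. In each of them both mitochondrial values were above both rest values, which held for 27.7% of all genes tested. Mrpl1, the protein of the opposite stalk near the site where tRNAs leave, had 50 and 77 normalized counts in mitochondria and 56 and 66 in the rest fraction. Its mitochondrial values enclosed the rest values, and the log2 fold change was 0.03 ± 0.31 (SE, adjusted p = 0.954). Over the mRNAs of 5 stalk proteins, the median log2 fold change was 1.01.

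Mrpl2 and Mrpl3 belong to the core around the peptidyl transferase centre. Mrpl2 had 89 normalized counts in mitochondria, in both replicates, against 45 and 32, with a log2 fold change of 1.21 ± 0.27 (SE, adjusted p = 0.0699 from limma). Mrpl3, which is linked to cardiomyopathy in humans, had 151 and 105 normalized counts in mitochondria and 109 and 79 in the rest fraction. Its fractions overlapped, and the log2 fold change was 0.44 ± 0.29 (SE, adjusted p = 0.368). Mrpl4, which reaches into the exit tunnel, also overlapped, with 58 and 84 normalized counts in mitochondria and 61 and 52 in the rest fraction (log2 fold change 0.30, adjusted p = 0.505). None of these 3 passed the test, and the differences among them were not tested.

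At the tunnel exit, where the new protein leaves the ribosome, 5 of 6 mRNAs had mitochondrial values above both rest values. This held for 27.7% of all genes tested. The median log2 fold change of the 6 was 0.87, and 0 of 6 passed the test, which 2.16% of all genes passed as higher. Mrpl45, which ties the ribosome to the inner membrane, had 116 and 82 normalized counts in mitochondria and 57 and 58 in the rest fraction. The log2 fold change was 0.75 ± 0.26 (SE, adjusted p = 0.144 from limma). Mrpl22, which also lines the tunnel, had 23 and 74 normalized counts in mitochondria and 16 and 18 in the rest fraction. The gap between its mitochondrial replicates was the widest of all 48 mRNAs, and the log2 fold change of 1.24 ± 0.61 (SE, adjusted p = 0.244) ranged from 0.42 without mitochondrial replicate 2 to 2.06 without replicate 1. Mrpl47 was the only one of the 48 with a negative log2 fold change, -0.16 ± 0.48 (SE, adjusted p = 0.837). It had 12 and 26 normalized counts in mitochondria, which correspond to 3 and 10 reads, and 21 and 19 in the rest fraction. The mitochondrial values enclosed the rest values, and the fold change turned to 0.36 when mitochondrial replicate 1 was left out.

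The central protuberance was represented by 7 mRNAs, of which 1, Mrpl18, passed the test, which 2.16% of all genes passed as higher. Of the 7, 6 had mitochondrial values above both rest values, against 27.7% of all genes tested. The median log2 fold change of the 7 was 0.98. Mrpl48, a mitochondria-specific protein of this site, had 50 and 61 normalized counts in mitochondria and 30 and 39 in the rest fraction (log2 fold change 0.68, adjusted p = 0.193 from limma).

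Mrpl58, a peptidyl-tRNA hydrolase that can release peptides from stalled ribosomes, had 101 and 77 normalized counts in mitochondria and 42 and 37 in the rest fraction. The log2 fold change was 1.14 ± 0.26 (SE, adjusted p = 0.0716 from limma). Mrpl44, another protein linked to cardiomyopathy in humans, had 58 and 61 normalized counts in mitochondria and 31 and 23 in the rest fraction (log2 fold change 1.13 ± 0.29 SE, adjusted p = 0.0847). In both, the mitochondrial values were above both rest values, as in 27.7% of all genes tested, and neither passed the test. Mrpl39, a mitochondria-specific protein, was nearly level, with 124 and 115 normalized counts in mitochondria and 118 and 96 in the rest fraction. On the log2 scale the fold change was 0.16 ± 0.21 (SE, adjusted p = 0.630). The ratio from its 77 mitochondrial and 710 rest reads was 1.09 (exact 95% interval 0.848 to 1.38), so that the counting error of these libraries allowed values on both sides of 1.

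Mrpl14, Mrpl36 and Mrpl19 had the widest gaps between the rest replicates. Mrpl14 had 12 and 31 normalized counts in mitochondria and 12 and 5 in the rest fraction. The lower mitochondrial value equalled the higher rest value, and the log2 fold change of 1.21 had a standard error of 0.69 (adjusted p = 0.299 from limma). Mrpl36 had 35 and 31 normalized counts in mitochondria and 20 and 11 in the rest fraction (log2 fold change 1.10, adjusted p = 0.161). Mrpl19 had 39 and 59 normalized counts in mitochondria and 25 and 38 in the rest fraction (log2 fold change 0.62, adjusted p = 0.318). Mrpl32, which the inner membrane protease m-AAA processes after import, had 35 and 46 normalized counts in mitochondria and 25 and 22 in the rest fraction (log2 fold change 0.75, adjusted p = 0.184). The fractions were separate in Mrpl36 and Mrpl32, in the order found for 27.7% of all genes tested. In Mrpl19 the lower mitochondrial value, 39, exceeded the higher rest value by less than 1 read of its library, worth 3.87 normalized counts. None of these mRNAs passed the test. Over all 48 mRNAs the median gap between replicates, in log2, was 0.385 in mitochondria and 0.180 in the rest fraction. The mitochondrial gap did not run one way, since 26 mRNAs were higher in replicate 1, 21 in replicate 2 and 1 was equal.

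The other 25 mRNAs had between 10 and 174 normalized counts per library. Their log2 fold changes ranged from 0.50 to 1.55 with adjusted p-values from limma between 0.0598 and 0.507, and 0 of the 25 passed the test. In 24 of them both mitochondrial values were above both rest values. The exception was Mrpl27, with 15 and 31 normalized counts in mitochondria and 14 and 16 in the rest fraction. The 25 are what was left after the mRNAs with the highest and lowest fold changes and the widest replicate gaps were described singly. Their count of 24 and their range of fold changes are therefore partly set by this choice. For this reason the count cannot be compared with the 27.7% of all genes tested.

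The mRNAs of homologues of bacterial proteins and of mitochondria-specific proteins had similar values. Among all genes tested, 2.16% rose and 27.7% had mitochondrial values above both rest values. Of the 30 homologues, 2 rose and 24 had mitochondrial values above both rest values, with a median log2 fold change of 0.99. Of the 18 mitochondria-specific mRNAs, 2 rose and 17 had separate fractions in this order, with a median of 0.99 as well. The mRNAs of the 3 large subunit proteins whose symbols do not follow the rule were read alongside. Mrps18a had 147 and 82 normalized counts in mitochondria and 44 and 34 in the rest fraction (log2 fold change 1.48, adjusted p = 0.0802 from limma). Mrps30 had 112 and 54 against 47 and 62 normalized counts (log2 fold change 0.52, adjusted p = 0.445), and its fractions overlapped. Gadd45gip1, at 4 and 5 against 9 and 7 normalized counts, did not reach the filter. Mrpl53 was not among the 48 genes that met the rule in the deposited table, and so was not analysed here.

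Per kilobase of annotated exon, the levels of the 48 mRNAs differed 48.8-fold in mitochondria, between Mrpl18 and Mrpl47, and 16.8-fold in the rest fraction, between Mrpl12 and Mrpl48, although their proteins enter the ribosome mostly in single copies. The median was 28.4 normalized counts per kb in mitochondria and 14.1 in the rest fraction. The highest levels over both fractions were those of Mrpl18, with 210.0 normalized counts per kb in mitochondria and 68.3 in the rest fraction, Mrpl12, with 146 and 71.1, and Mrpl42, with 155 and 43.2. In mitochondria Mrpl12 and Mrpl42 differed by less than the spread between the replicates of Mrpl12. The lowest were Mrpl47, with 4.30 in mitochondria and 4.53 in the rest fraction, Mrpl48, with 6.81 and 4.23, and Mrpl32, with 8.13 and 4.72. The lengths count every annotated exon, which for Mrpl48 sums to 8152 bases around a coding sequence of 633 bases, so that levels of genes with long or rarely used exons are understated.

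The counting of some of these genes is uncertain. Exons of 21 of the 48 overlap those of another annotated gene, in 19 cases on the opposite strand. The study names a stranded library kit but does not say whether strand was used in counting. Mrpl47 shares 1068 bases with Actl6a and Ndufb5, and Mrpl18 shares 141 bases with Tcp1. Transcripts of 19 of the 48 contain a stretch of at least 75 bases, the read length, that is at least 95% identical to a transcript of another gene elsewhere. These include Mrpl48-ps for Mrpl48 (98.1% over 636 bases), Mrpl23-ps1 for Mrpl23 (100% over 540 bases), Gm6419 for Mrpl42 (96.3% over 429 bases), Gm11945 for Mrpl30 (95.1% over 385 bases) and Gm13675 for Mrpl18 (98.1% over 159 bases). Reads with several alignments or genes were excluded by the authors. Of the 17 mRNAs with neither kind of ambiguity, 1 rose, Mrpl54, against 2.16% of all genes, and the median log2 fold change was 0.98. In 14 of the 17 both mitochondrial values were above both rest values, against 27.7% of all genes tested.

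The large subunit mRNAs are short, and short mRNAs were higher in mitochondria in general. The coding sequences ranged from 276 to 1269 bases with a median of 590, against a median of 1490 for all tested protein-coding genes. Across the 48 mRNAs the log2 fold change fell with the logarithm of coding length (Pearson's r = -0.429, Spearman's rho = -0.412), and across the 10551 other nuclear protein-coding genes of the same libraries it did so as well (r = -0.399, rho = -0.423). These are correlations across genes, which are not independent replicates. Below 500 bases of coding sequence, the 17 large subunit mRNAs had a median log2 fold change of 1.08 and the 787 other genes one of 0.83. From 500 to below 750 bases the medians were 1.08 for 14 and 0.35 for 1045 genes, from 750 to below 1000 bases 0.89 for 12 and 0.17 for 1132 genes, and from 1000 to below 1500 bases 0.44 for 5 and -0.06 for 2314 genes. The medians of the large subunit mRNAs thus lay above those of other genes in each range, least so for the shortest. Of the 4 mRNAs that rose, 3 have coding sequences under 500 bases. The part of length, or of the adjusted fragmentation of mitochondrial samples, in the difference between fractions was not tested.

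**Figure D3:**
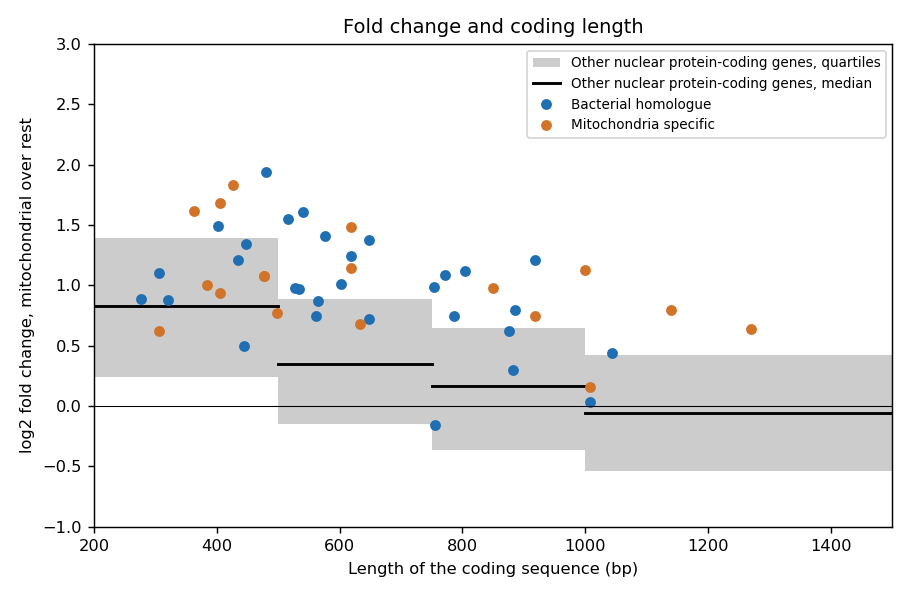
The log2 fold change of the 48 large subunit mRNAs (points, coloured by homology) is plotted against the length of their coding sequence in bases. Black lines and grey bands give the median and quartiles of the other nuclear protein-coding genes in 4 ranges of length, with medians falling from 0.83 below 500 bases to -0.06 from 1000 to below 1500 bases.

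The genes lie on 17 chromosomes, with 8 of them on chromosome 11, and 16 start within 1000 bases of a protein-coding neighbour that runs the other way. Their promoters were searched for binding motifs of 3 factors known for genes of mitochondrial proteins, on both strands and from 250 bases before to 50 bases after the start as given by RefSeq (GRCm38.p6), where 42 of the 48 were matched. The letters CCGGAAG of ETS factors such as GABP were found in 14 of the 42 (33.3%), against 20.6% of the 8432 tested protein-coding genes with a promoter and 8.86% of all 32851 windows. The letters AAGATGGC of YY1 were found in 6 (14.3%), against 5.51% and 2.75%. Those in Mrpl42, Mrpl37, Mrpl35 and Mrpl49 lay after the start, in the transcribed stretch. Whether the ATG in these letters begins the coding sequence was not checked. The NRF1 consensus was found in 5 (11.9%), against 3.49% and 1.27%. The count depends on the form of the motif, since the exact letters of its core, searched first, were found in 3 (7.14%), against 2.41% and 0.971%, and the consensus was chosen after this result was seen. Different motifs overlapped in 0 windows, and 23 of the 42 held at least one. For each motif, the stretch from 100 bases before to 50 bases after the start is shown for the gene with the highest log2 fold change among those holding it, with the matches in capitals. Mrpl42 is shown on the minus strand (chr10:95501900-95502049), Mrpl52 (chr14:54426809-54426958) and Mrpl44 (chr1:79775918-79776067) on the plus strand.
Mrpl42 (YY1): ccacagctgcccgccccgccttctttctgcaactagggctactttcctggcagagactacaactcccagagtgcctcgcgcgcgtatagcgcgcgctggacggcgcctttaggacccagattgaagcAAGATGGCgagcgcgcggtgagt
Mrpl52 (ETS): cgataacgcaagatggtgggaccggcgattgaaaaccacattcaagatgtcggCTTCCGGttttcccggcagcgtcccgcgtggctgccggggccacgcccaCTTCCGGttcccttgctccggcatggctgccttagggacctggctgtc
Mrpl44 (NRF1): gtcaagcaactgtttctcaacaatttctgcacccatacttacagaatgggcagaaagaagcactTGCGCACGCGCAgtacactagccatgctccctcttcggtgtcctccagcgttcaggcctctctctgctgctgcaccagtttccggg
Mrpl30, with the largest fold change of all, held none of the 3 motifs in its window. The matches describe these windows and were not related to the difference between fractions.

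Related genes were read in the same way. Of all genes tested, 27.7% lay above and 33.4% below both rest values. The 24 tested mRNAs of the mitochondrial small subunit had a median log2 fold change of 1.02, 22 of them had mitochondrial values above both rest values, and 3 rose: Mrps21 (2.31, adjusted p = 0.0427 from limma), Mrps15 (1.55, 0.0427) and Mrps25 (1.57, 0.0441). The 48 tested mRNAs of the cytosolic large subunit, a list taken by symbol, had a median of 1.34. Of these, 46 had mitochondrial values above both rest values, and 22 rose. Of the 17 factors that assemble the mitochondrial large subunit or modify its rRNA, 0 rose and 0 fell, beside 2.16% and 1.39% of all genes, and 2 were higher at an unadjusted p-value under 0.05 in limma. Their median was 0.05, with 7 (41.2%) above and 2 (11.8%) below both rest values. The helicase Dhx30 had 46 and 99 normalized counts in mitochondria and 132 and 121 in the rest fraction (log2 fold change -0.89, adjusted p = 0.216), whereas the GTPase Mtg1 had 70 and 59 against 35 and 18 (1.32, adjusted p = 0.114). Of the 12 mitochondrial translation factors, 0 rose and 0 fell, while without adjustment limma gave 1 higher and 1 lower at a p-value under 0.05. Their median was 0.17, with 4 (33.3%) above both rest values, near the share of all genes, and 2 (16.7%) below. The elongation factor Tufm had 345 and 227 against 180 and 157 normalized counts (0.73, adjusted p = 0.153). The difference between the large subunit and these lists was not tested. The rRNA of the large subunit, mt-Rnr2, had 131864839 and 49927537 normalized counts in mitochondria and 2563033 and 3238075 in the rest fraction (log2 fold change 4.82 ± 4.27 SE, adjusted p = 0.483 from limma). The lower mitochondrial value was 15.4 times the higher rest value, and the SE from the spread of these replicates alone was 0.72, so that the SE of limma, which draws on the trend of variance with level, was far wider than the replicates.

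**Figure D4:**
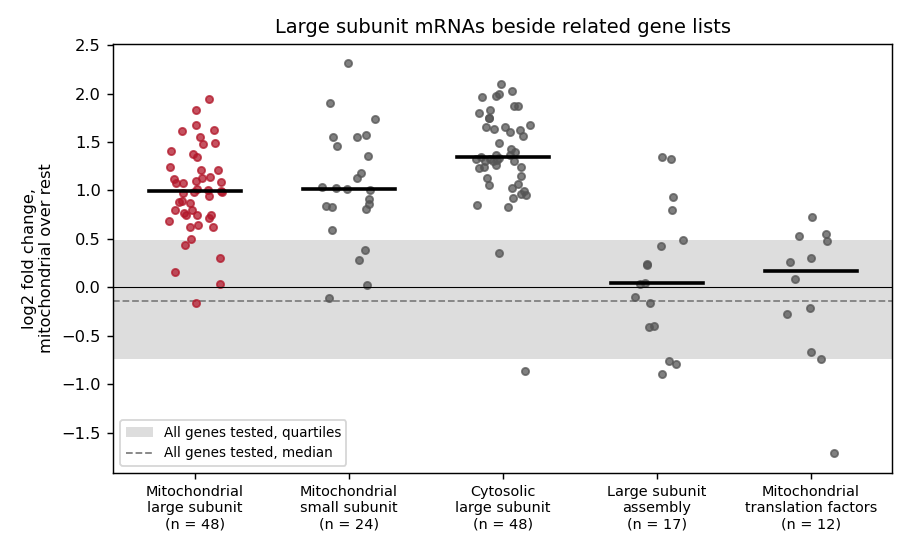
Each point is the log2 fold change of a tested gene, for the mitochondrial large subunit (red) and 4 related lists, with the median of each list as a black bar and the quartiles and median of all 12150 genes tested as a grey band and dashed line. Under the deposited scaling the medians are 0.99 for the mitochondrial large subunit, 1.02 for the small subunit, 1.34 for the cytosolic large subunit, 0.05 for assembly factors and 0.17 for translation factors.

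Markers of the cell types of the heart did not move together between the fractions. Of all genes tested, 27.7% lay above and 33.4% below both rest values. Summed over 8 markers, cardiomyocyte mRNAs had 278909 and 206409 normalized counts in mitochondria and 236784 and 208605 in the rest fraction, with 5 markers above and 1 below both rest values. Fibroblast markers were above both rest values in 5 of 6 cases (sums 8382 and 3550 against 2236 and 3180) and leukocyte markers in 4 of 5 (538 and 322 against 198 and 279). Endothelial markers were below in 6 of 6 cases (1596 and 1402 against 2703 and 2460) and erythroid markers in 5 of 5 (50 and 341 against 824 and 440). Smooth muscle and pericyte markers were below in 2 of 4 cases (1372 and 1594 against 2488 and 3038), of which 1, Myh11, fell in the test. The part of these cells in the difference of the large subunit mRNAs was not tested. Both fractions are spins of heart homogenate, so the marker values do not measure cell number or RNA per cell.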

How the data were processed

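RNA-seq values of 4 libraries of mouse heart, 2 of the mitochondrial and 2 of the rest fraction, were analysed. The authors trimmed reads (Trimmomatic 0.39), aligned them to mm10 (GRCm38) with STAR, counted exonic reads per gene with featureCounts and excluded reads with several genes or alignments. The submitters' processing notes name STAR 2.7.10a, featureCounts 2.0.2 and DESeq2 1.30.1, and the methods name other versions. The deposited signal is a normalized count, which the authors made from counts with size factors and rounded, so a count test was not run. The worth of 1 read was estimated from the spacing of the values. It lies under 1 normalized count in the rest libraries, where reads are approximate.

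Log2(normalized count + 1) of 12150 genes (10 or more normalized counts in 2 or more libraries) was fitted in limma 3.58.1 (R 4.3.3) with a mean-variance trend and Benjamini-Hochberg adjustment over all of them. With 2 against 2 libraries, an exact permutation test cannot give a two-sided p below 0.333, and none was made. The script was tested on simulated data. Scaling, filter, pseudocount, a replicate block and leaving out each library were varied. Lengths, positions and overlaps came from GENCODE M21 (GRCm38), whose positions matched all 48 genes, and transcripts were searched with blastn 2.17.0. Genes named with full values were those past the test, the 5 highest and 5 lowest fold changes, the 3 highest and 3 lowest levels per kb, the 3 widest replicate gaps in each fraction and 8 genes chosen by role. Mrpl27, Mrpl23, Dhx30, Mtg1, Tufm and the single exceptions of other lists were named after their values were seen. Genes and lists were chosen with earlier results of these data known.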

Additional observations from a re-analysis of the deposited data

How the results depend on the processing

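Scaling by recomputed size factors or TMM, testing without the filter on low values and the replicate block left 4 or 5 large subunit mRNAs higher in mitochondria and a median log2 fold change of 0.98 or 0.99. With libraries scaled to their total, 0 were higher and 48 lower, the median was -2.93, and 0 mRNAs had both mitochondrial values above and 48 below both rest values, because this scaling moved the median of all genes to -3.93. With the total without the mitochondrial chromosome, the median of all genes was -0.98, the median of the large subunit mRNAs 0.14, 1 was higher, and 12 lay above and 8 below both rest values. With the total of nuclear protein-coding genes, chosen after seeing the data, 9 were higher. With a mean above 50, 13 of 26 were higher and 22 lay above both rest values. With a pseudocount of 0.1, 0 were higher (30 at an unadjusted p-value under 0.05 in limma), and with one of 10 there were 6 and the median was 0.80. Over all genes, limma called 129 higher with the total without the mitochondrial chromosome and 615 with that of nuclear protein-coding genes. It called 790 with a mean above 50, 0 with a pseudocount of 0.1 and 536 with one of 10, against 262 in the main fit. The share of all genes above or below both rest values is not given for these settings. Restricted, after seeing the data, to the 17 mRNAs without overlap or near-identical copy, 1 was higher and 14 lay above both rest values. Without 1 library each, limma called from 0 to 0 higher, with a lone library assumed to vary like the other fraction, and the median ranged from 0.91 to 1.05. Relative to the median of all genes, the log2 fold change of Mrpl47 was 0.11 with the library total. Without 1 library, the plain log2 fold change of Mrpl47, not relative to that median, ranged from -0.69 to 0.36 (0.36 without mitochondrial replicate 1). That of Mrpl1 ranged from -0.28 to 0.34 (-0.28 without mitochondrial replicate 2, -0.09 without rest replicate 1). With a mean above 50 only 1 assembly factor was left, at -0.84 relative to all genes. The cause of these changes was not tested beyond the construction of each setting. The replicate numbers come from the labels, which do not say that they mark shared animals. Differences between replicates 1 and 2 correlated across genes at r = 0.130 between fractions, and with the number as a block 5 mRNAs were higher, adding Mrpl52 (adjusted p = 0.0443 from limma). In mitochondrial replicate 1, 10 of the 48 mRNAs had fewer than 10 reads, which limits their precision.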
